A study of Mus musculus with 10 samples.

Results

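The R-spondin receptors Lgr4, Lgr5 and Lgr6 and the membrane E3 ubiquitin ligases Rnf43 and Znrf3 were followed by every array probe whose gene name was one of these 5 symbols or an older symbol of them. All 5 genes, of 28034 distinct gene names on the array, were found, with 9 of the 41174 distinct gene probes. Lgr4 had 4 probes, Rnf43 had 2, and Lgr5, Lgr6 and Znrf3 had 1 each. A probe named LOC676300, described in the files as similar to Lgr6, fell outside the rule and was above background in the Cy5 channel of 0 of 10 arrays.

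The data are 10 mouse arrays in Agilent's 2-colour format, all from samples taken 1 day after the deletion, the induction or the withdrawal. Crypts were isolated from the small intestine of AhCre Lgr4fl/fl Lgr5fl/fl mice after deletion of both receptors, and were hybridised directly against crypts of wild type mice in 2 biological replicates, each on 2 arrays with the dyes swapped. AhCre is a Cre transgene whose promoter responds to xenobiotics. Whether wild type mice were given the inducer is not stated in the labels. Organoids, miniature epithelia grown from crypts in a medium with EGF, Noggin and R-spondin, came from VillinCre Lgr4fl/fl Lgr5fl/fl mice with both receptors deleted (2 cultures) and from VillinCre wild type mice given tamoxifen (2 cultures). VillinCre drives Cre from the promoter of an epithelial gene. A further 2 organoid cultures were grown without R-spondin (1 culture) and with it (1 culture), with no strain given. Organoid RNA was in Cy5 and a commercial mouse reference RNA in Cy3. Nothing in the labels says how many mice stand behind a culture, so the p-values measure the spread between these samples. Which exons are flanked by loxP sites is not given in the sources used here.

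R-spondins are secreted proteins that bind Lgr4, Lgr5 and Lgr6, which are receptors with a large leucine-rich outer part and 7 membrane passes. Rnf43 and Znrf3 add ubiquitin to Frizzled receptors, which removes Frizzled from the cell surface and lowers Wnt signalling. An R-spondin held by an Lgr receptor also binds Rnf43 or Znrf3 and clears the ligase from the membrane, so that Frizzled and its co-receptors Lrp5 and Lrp6 remain. In the intestine Lgr5 marks the stem cells at the crypt base, Lgr4 is found more widely in the crypt, and Lgr5, Rnf43 and Znrf3 are themselves known Wnt target genes.

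The probe sequences are shown because the Lgr4 probes gave different answers, and the place of a probe on the transcript decides what it can report after a deletion. Positions are those in the file headers, on mouse build mm9. The Lgr4 probes lay on the plus strand at chr2:109829910-109831296 (A_52_P278566), chr2:109846062-109846121 (A_52_P633844), chr2:109852832-109852891 (A_51_P442746) and chr2:109854007-109854066 (A_52_P276727). The first of these is 60 bases long and spans 1387 bases of the genome, so it crosses at least 1 splice junction. A_52_P633844 was designed on a cDNA clone and not on the reference transcript. The Lgr5 probe lay on the minus strand at chr10:114888847-114888906, and the Lgr6 probe on the minus strand at chr1:136883782-136883841. The Rnf43 probes lay on the plus strand at chr11:87543959-87544018 (A_52_P78183, also designed on a cDNA clone) and chr11:87548944-87549003 (A_51_P337101). The Znrf3 probe lay on the minus strand at chr11:5176747-5176806. Each sequence is given 5′ to 3′ in the sense of the transcript, whole (60 bases) for the junction probe and the Lgr6 probe and as the first 30 bases for the others.
Lgr4 A_52_P278566: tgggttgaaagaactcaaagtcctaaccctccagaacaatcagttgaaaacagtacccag
Lgr4 A_52_P633844: tgttaaggaccagtttaaatgtgacactat
Lgr4 A_51_P442746: agtcagaagtctgtgaagaatgggagccta
Lgr4 A_52_P276727: gcatatgatgaagtttatcttgtgtaaatt
Lgr5 A_51_P218091: aaacaccgcttgtatcatttgttcagctaa
Lgr6 A_52_P616580: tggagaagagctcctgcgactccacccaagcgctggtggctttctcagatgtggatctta
Rnf43 A_51_P337101: atgggtatttatatctgaaccagacagaaa
Rnf43 A_52_P78183: tgttgcttctaaatctaatttgtttgcaaa
Znrf3 A_52_P234039: ctgacctgcatttttctattccttacataa

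Of the 9 probes, 5 could be tested in crypts and 7 in the organoid deletion, 8 were measured in the R-spondin pair, and 1 (Lgr4 A_52_P633844) was above background in no channel that carried sample RNA. A probe counted as measured if the scanner software called it well above background without exception in either of the groups compared. A probe that passed through its bright group alone had to differ, so no count over the tested probes is offered as support. Across 14236 probes the crypt log2 ratios of the dye swaps correlated at 0.35 within replicate 1 and at 0.92 within replicate 2, and at 0.34 to 0.40 between replicates. On the 4 organoid deletion arrays the negative controls of the Cy3 reference channel (medians 5883 to 6564) were brighter than the gene probes (1830 to 1933), so Cy5 was read alone there and the ratio to the reference is given beside it. All 6 epithelial markers were above background in the Cy5 channel of every array. In bulk RNA of this kind, fewer cells of a type and less RNA per cell cannot be told apart.

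Lgr5, the stem cell receptor, was lower in deleted crypts on every array. Its log2 ratio of deleted over wild type crypts was -1.51 and -2.27 on the arrays of replicate 1 and -1.54 and -1.42 on those of replicate 2. The normalised log2 signals were 8.37 to 9.12 in deleted crypts and 10.06 to 10.64 in wild type crypts, and the channels did not overlap. The mean was -1.68 (SE 0.24, n = 2 replicates), a 3.21-fold lower signal, with a limma adjusted p of 0.0721 over 17377 probes, so it did not pass 0.05. It ranked 57 of 17377 by p, and over 8 alternatives in processing the limma adjusted p ran from 1.2e-06 to 0.529 with the direction kept. In deleted crypts Lgr5 stayed above background in all 4 channels.

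In deleted organoids the Lgr5 signal was at the background. Its log2 Cy5 signal was 6.15 and 6.29 in the deleted cultures, neither above background, against 9.94 in wild type culture 1. The spot of wild type culture 2 was left out of the fit because the software had marked its local background. Its raw Cy5 signal was 1591, against 1004 in wild type culture 1 and 108 and 118.5 in the deleted cultures. By Cy5 the signal was at least 12.3-fold lower, a bound from the lowest signals well above background on the deleted arrays. The fit gave -3.73 (SE 0.28, n = 2 deleted and 1 wild type) with a limma adjusted p of 0.0958. With 1 wild type value, that group was assumed to vary like the deleted cultures. The probe was also tested through its wild type group alone, so it had to differ. The ratio to the reference gave -3.74 (limma adjusted p 0.52), and the authors' series matrix, which holds ratios to that reference, gave -1.32 (limma adjusted p 0.773).

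Without R-spondin the Lgr5 signal was at the background as well. The raw Cy5 signal was 173.9 without R-spondin, not above background, against 6600 with it. By Cy5 the measured signal was 82.3-fold lower without R-spondin. By ratio to the reference the difference was -5.08 on the log2 scale (33.8-fold), and by the scanner's processed signals -4.60. The lower signal was at the background, so the probe counted as measured through the culture with R-spondin alone and had to differ. Each condition had 1 array, so these differences have no replicate check and no test.

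**Figure D1:**
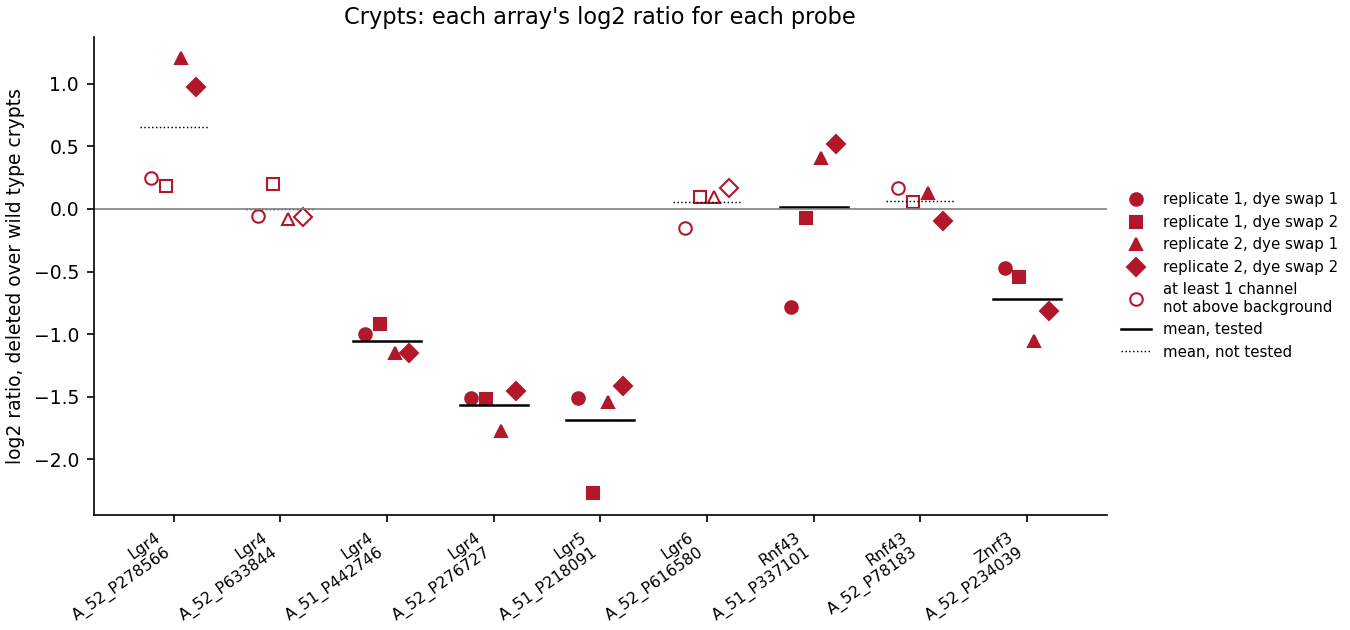
Log2 ratio of deleted over wild type crypts (vertical axis) for each of the 9 probes (horizontal axis). Each symbol is 1 array, the lines are means over the 4 arrays, and open symbols mark arrays where at least 1 channel was not above background. The Lgr5 probe and the last 2 Lgr4 probes lie at or below -0.92 on every array, Znrf3 lies between -1.06 and -0.48, and the Rnf43 probe A_51_P337101 splits by replicate.

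Lgr4, the more broadly expressed receptor, depended on the probe. The brightest probe, A_52_P276727, gave log2 ratios of -1.51, -1.52, -1.78 and -1.45 on the 4 crypt arrays. Its normalised log2 signals were 9.65 to 9.90 in deleted crypts and 11.16 to 11.48 in wild type crypts, with no overlap. Its mean was -1.56 (SE 0.23, n = 2 replicates, limma adjusted p 0.0721, and 0.000148 to 0.529 over 8 alternatives). The neighbouring probe A_51_P442746 gave a smaller difference, with replicate values of -0.96 and -1.15 and a mean of -1.05 (SE 0.23, limma adjusted p 0.173, and 0.00598 to 0.529 over 8 alternatives). Its log2 signals, 8.26 to 8.44 in deleted crypts and 9.35 to 9.45 in wild type crypts, did not overlap either.

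In organoids A_51_P442746 was the 1 member probe that passed the test. Its log2 Cy5 signal was 6.40 and 6.57 in deleted cultures, neither above background, and 9.77 and 9.97 in wild type cultures. This probe was tested through its wild type cultures alone, so it had to differ, and its p is not offered as support. The measured signal was 10.4-fold lower in deleted organoids (fitted log2 change -3.38, SE 0.22, n = 2 each, limma adjusted p 0.0201). By ratio the change was -3.08 (limma adjusted p 0.52), and by the series matrix it was -1.30 (limma adjusted p 0.36). Without background correction the probe gave -2.98, and with marked spots kept -2.68. Without deleted culture 1 its limma adjusted p was 0.0963, and over 10 alternatives in processing it ran from 7.33e-05 to 0.52. A_52_P276727 was at 7.33 and 8.16 in deleted cultures, both above background, and at 11.00 and 11.63 in wild type cultures. Its fitted difference of -3.57 (SE 0.36) was as large but did not pass (limma adjusted p 0.096). By ratio that probe gave -0.59 (limma adjusted p 0.971), and by the series matrix -1.18 (limma adjusted p 0.552).

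The junction probe A_52_P278566 did not share this pattern. Its crypt log2 ratios were 0.25 and 0.18 (replicate 1) and 1.20 and 0.97 (replicate 2). It was above background in 3 of 4 deleted channels and 2 of 4 wild type channels, so it was not tested there. In organoids it was at 8.58 and 7.37 in deleted cultures and 8.01 and 7.65 in wild type cultures. These values overlapped, and the difference was 0.14 (SE 0.42, limma adjusted p 0.997). The probe lies upstream of the other Lgr4 probes, and its position relative to the deleted exons was not tested.

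Without R-spondin the Lgr4 probes lay near the level of the culture with R-spondin. By ratio to the reference the differences were -0.01 for A_52_P276727, 0.54 for A_51_P442746 and -0.01 for the junction probe, and by Cy5 they were 0.08, 0.54 and 0.26. The raw signal of A_52_P276727 was 2781 without R-spondin and 2454 with it. None of the 3 passed a log2 difference of 1 in either direction.

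**Figure D2:**
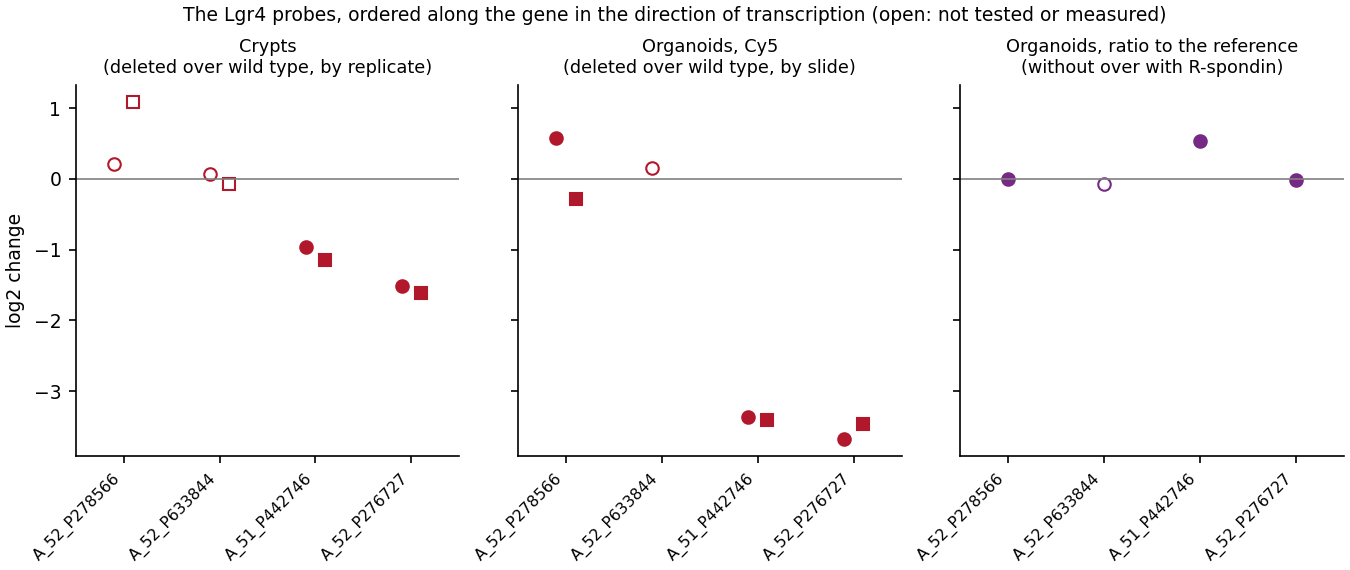
Log2 change (vertical axis) of the 4 Lgr4 probes in the order of transcription (horizontal axis), in crypts by replicate, in organoids by slide and after R-spondin withdrawal by ratio. Filled symbols are tested or measured probes; the 2 downstream probes lie between -1.61 and -0.96 in crypts and between -3.68 and -3.37 in organoids, and the junction probe lies between -0.28 and 1.09.

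Lgr6, the third receptor, was close to the detection limit throughout. Its crypt log2 ratios were -0.15 and 0.09 (replicate 1) and 0.10 and 0.17 (replicate 2), with 2 of 4 deleted channels and 0 of 4 wild type channels above background, so no test was made. In organoids its log2 Cy5 signal was 6.85 and 6.54 in deleted cultures, 1 of them above background, and 7.1 and 7.0 in wild type cultures. The probe was tested through its wild type cultures alone. The difference was -0.34 (SE 0.22, limma adjusted p 0.87) and 0.04 by ratio, so its direction depended on the measure. Without R-spondin the difference was 0.04 by ratio and 0.01 by Cy5, with raw signals of 214.8 without and 208.8 with R-spondin. A change was not detectable from this probe at this brightness.

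Rnf43, the first of the ligases, had no common direction in crypts. The bright probe A_51_P337101 gave log2 ratios of -0.79 and -0.07 (replicate 1) and 0.41 and 0.52 (replicate 2). The normalised log2 signals were 12.02 to 12.72 in deleted crypts and 12.04 to 12.81 in wild type crypts, and they overlapped. The mean was 0.02 (SE 0.29, n = 2 replicates, limma adjusted p 0.986). The dim probe A_52_P78183 was above background in 2 of 4 deleted and 3 of 4 wild type channels and was not tested, with ratios between -0.10 and 0.17.

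In organoids Rnf43 was lower in both deleted cultures. Its log2 Cy5 signal was 10.75 and 10.39 in deleted cultures and 12.53 and 12.81 in wild type cultures, with no overlap. The difference was -2.10 (SE 0.24, n = 2 each), a 4.28-fold lower signal, and the limma adjusted p was 0.111. Within the slides, each of which held 1 deleted and 1 wild type culture, it was -1.77 and -2.42. By ratio it was -1.01 (limma adjusted p 0.971).

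Rnf43 was also lower without R-spondin. The raw signal of the bright probe was 1951 without R-spondin and 9953 with it, a difference of -2.09 by ratio and -2.58 by Cy5. The dim probe had 179.9 without R-spondin, not above background, and 253.9 with it, at -1.13 by ratio and -0.98 by Cy5. The dim probe counted as measured through the culture with R-spondin alone, so it had to differ. Its value ran from -0.73 without background correction to -2.54 by the series matrix. Both probes were below the culture with R-spondin, and the bright probe held rank 250 of 24300 from the lowest by ratio.

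Znrf3, the paralogue of Rnf43, was lower in each setting. Its crypt log2 ratios were -0.48 and -0.54 (replicate 1) and -1.06 and -0.81 (replicate 2). The normalised log2 signals were 7.97 to 8.34 in deleted crypts and 8.79 to 9.11 in wild type crypts, without overlap, and the mean was -0.72 (SE 0.24, n = 2 replicates, limma adjusted p 0.32). In organoids the log2 Cy5 signal was 8.14 and 7.92 in deleted cultures and 9.05 and 9.25 in wild type cultures. That difference was -1.12 (SE 0.22, n = 2 each, limma adjusted p 0.321), and it was -0.91 and -1.34 within the slides. By ratio it was -0.05 (limma adjusted p 0.99), so the organoid difference was seen in Cy5 alone. Without R-spondin the raw Cy5 signal was 319.7, against 733.5 with it, a difference of -1.43 by ratio and -1.48 by Cy5.

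**Figure D3:**
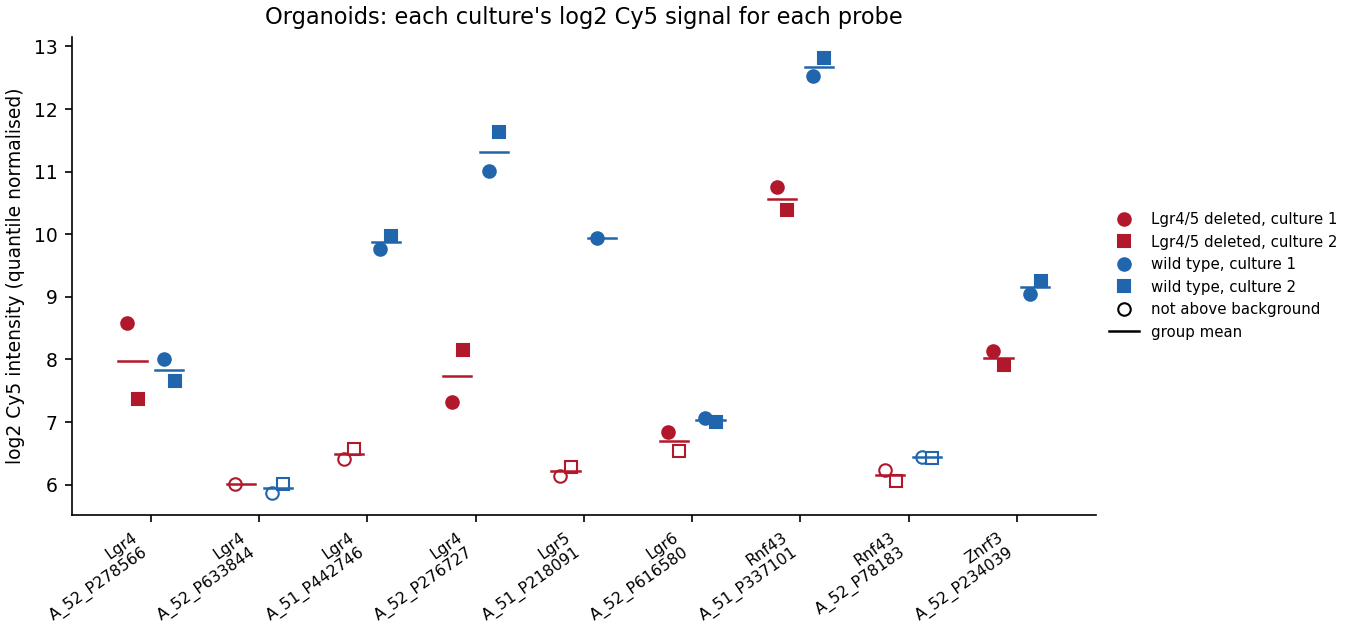
Quantile-normalised log2 Cy5 intensity (vertical axis) of each probe (horizontal axis) in the 2 deleted and the 2 wild type organoid cultures, with group means as lines and open symbols where the probe was not above background. The deleted cultures lie below the wild type cultures for the last 2 Lgr4 probes, Lgr5, Lgr6, Znrf3 and both Rnf43 probes (1 wild type value for Lgr5), and overlap them for the Lgr4 junction probe.

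Counted over the member probes, 0 of the 5 tested in crypts passed a limma adjusted p of 0.05, where 0.0345% of the 17377 tested probes passed as lower and 0.155% as higher. At an unadjusted p under 0.05, 4 of the 5 were lower, where 1294 of the 17377 were. The ratio was below 0 on all 4 arrays for 4 of the 5 (17.2% of 14236 probes with values on every array). In organoids 1 of the 7 passed as lower, where 0.0101% of 19835 probes passed as lower and 0.0252% as higher, and 5 of the 7 were lower at an unadjusted p under 0.05, where 735 of the 19835 were. The 1 that passed, Lgr4 A_51_P442746, was tested through its wild type cultures alone, as were Lgr5 and Lgr6. Both deleted cultures lay below both wild type cultures for 5 of the 6 tested probes with values in all cultures. Of all such probes, 17.5% did so. These organoid counts include probes tested through their wild type cultures alone, so they are not offered as support. By ratio no probe passed (0% of 19792, smallest limma adjusted p 0.52), and at an unadjusted p under 0.05 360 probes were lower and 441 higher. Without R-spondin 4 of the 8 measured probes were lower by a log2 difference of at least 1 by ratio, as were 5.76% of 24300 probes, and 3 of the 8 by Cy5, as were 6.22% of 25191. None was higher by as much, where 4.22% and 5.16% of probes were. Lgr5 and the dim Rnf43 probe counted as measured through the culture with R-spondin alone, so these counts are not offered as support.

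The slides of the organoid arrays each held both groups, and fitting the slide as a block changed several calls. With that block the limma adjusted p was 6.74e-05 and 7.33e-05 for the Lgr4 probes A_52_P276727 and A_51_P442746, 0.00197 for Rnf43 and 0.0212 for Znrf3. It was 0.381 for Lgr6 and 0.816 for the Lgr4 junction probe. For Lgr5 the block left the difference within slide 1 alone, -3.80, with no residual spread of its own, so no p is given. The same block raised the calls over all probes to 290 lower and 242 higher.

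**Figure D4:**
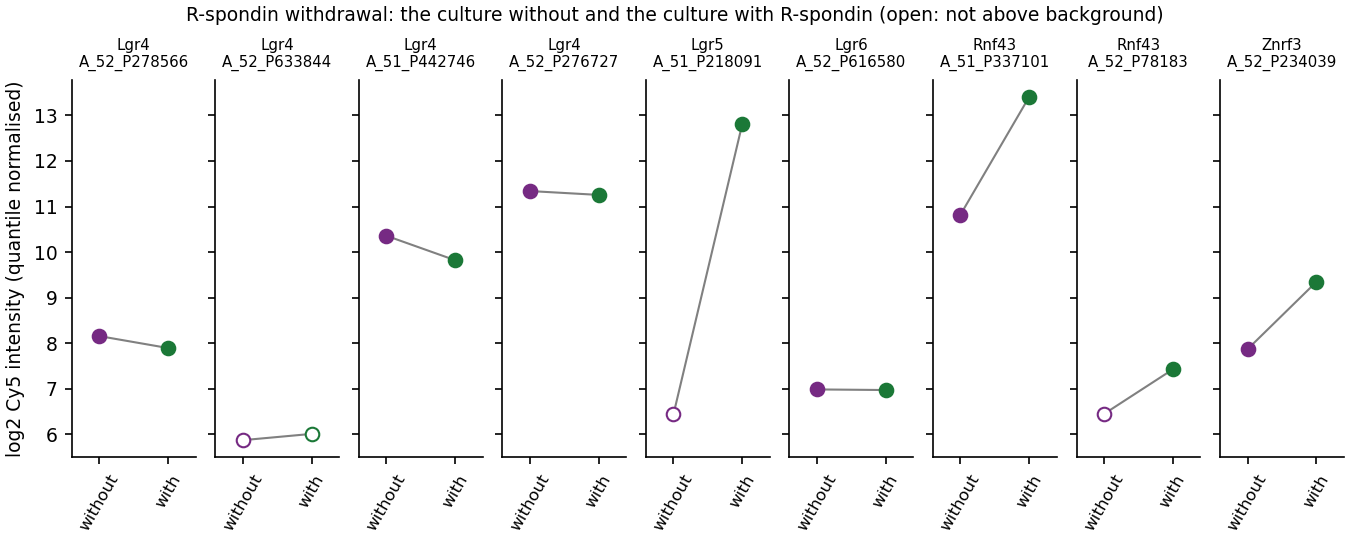
Quantile-normalised log2 Cy5 intensity (vertical axis) of each probe in the culture without and the culture with R-spondin (horizontal axis), 1 array each, with open symbols where the probe was not above background. Lgr5 is at 6.44 without and 12.80 with R-spondin, Rnf43 A_51_P337101 at 10.82 and 13.41, Znrf3 at 7.87 and 9.34, and the measured Lgr4 and Lgr6 probes differ by at most 0.54.

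The fitted deletion effect had a lower value in organoids than in crypts for all 5 probes tested in both, and the difference itself was tested. The crypt change minus the organoid change was 2.33 for Lgr4 A_51_P442746 (SE 0.32, limma adjusted p 0.0563), 2.04 for Lgr5 (SE 0.40, 0.287), 2.01 for Lgr4 A_52_P276727 (SE 0.43, 0.314), 2.11 for Rnf43 (SE 0.42, 0.252) and 0.40 for Znrf3 (SE 0.34, 0.916). Of these 5, 0 passed, and 12 of 16768 probes did (0.0716%). At an unadjusted p under 0.05, 4 of the 5 were above 0, where 417 of the 16768 probes were above 0 and 465 below. For Rnf43 the sides were 0.02 in crypts and -2.10 in organoids. Crypts were measured by ratio on one kind of array and organoids by Cy5 on another, and the Cre driver and the slides differed too, so these cannot be told apart from the tissue. By the organoid ratio the difference for Lgr4 A_52_P276727 was -0.98 and for Znrf3 -0.67, with the sign turned.

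Markers of other cell types differed in the crypt comparison too. Of 12 immune cell markers, 10 were tested in crypts, 0 were below 0, and the median was 1.76 (all genes tested, -0.02). The T cell chemokine gene Ccl5 rose by 2.46 (limma adjusted p 0.0405) and was the 1 that passed. At an unadjusted limma p under 0.05, 9 immune markers were higher and 0 lower. The summed normalised Cy5 signal of that list was 15930 and 64560 in deleted crypts and 11400 and 10750 in wild type crypts. In each, 10 or 11 of the 12 were above background. In all such sums marked spots were left out, so 2 arrays can sum different genes. Of 10 enterocyte markers 1 was below 0 in crypts (median 0.63), and 1 passed as higher, Ada at 2.31 (limma adjusted p 0.0405). At an unadjusted limma p under 0.05, 6 were higher and 0 lower. The summed signal of the list was 905800 and 730300 in deleted crypts and 326500 and 283900 in wild type crypts. Of 12 stem cell markers, a list without Lgr5, 11 were below 0 in crypts with a median of -0.76, and 0 passed in limma. With unadjusted p under 0.05 there were 9 lower and 1 higher. Of 7 Paneth cell markers 7 were below 0 (median -0.79), as were 5 of 5 tested stromal and muscle markers (median -0.76), and in limma 0 of either list passed, with 4 and 3 lower at an unadjusted p under 0.05. In organoids 10 of 11 tested stem cell markers were below 0 (median -1.59) and 7 of 7 Paneth cell markers (median -0.74), and 1 of 9 enterocyte markers was below 0 (median 0.55). In limma 0 of these passed, and at an unadjusted p under 0.05, 9 stem cell markers were lower and 1 higher, and 3 enterocyte markers were higher. Those organoid values are by Cy5. By ratio 8 of 11 stem cell markers (median -0.43) and 6 of 7 Paneth cell markers (median -0.58) were below 0. For enterocyte markers it was 4 of 9 (median 0.02), so the size of these differences depended on the measure. The stem cell list summed to 10260 and 12880 in deleted cultures and 26620 and 40510 in wild type cultures, and the enterocyte list to 354200 and 592400 in deleted cultures and 62800 and 601200 in wild type cultures, which overlapped. Without R-spondin 8 of 10 measured stem cell markers were lower by at least 1 and 1 was higher (median -2.65). That list summed to 5365 without R-spondin and 38490 with it. By ratio 4 of the 10 enterocyte markers were measured, with a median of 0.53 and 0 past a log2 difference of 1. By Cy5, 5 were measured, with 3 higher and 1 lower by at least 1 (median 1.39). Enterocyte sums of this pair are not given, because spots of several of these genes were left out on at least 1 array. In organoids the immune list summed to 1829 and 1624 in deleted cultures and 1807 and 1625 in wild type cultures, with 3 or 4 of the 12 above background in each. The part of these cell types in the member values was not tested.

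**Figure D5:**
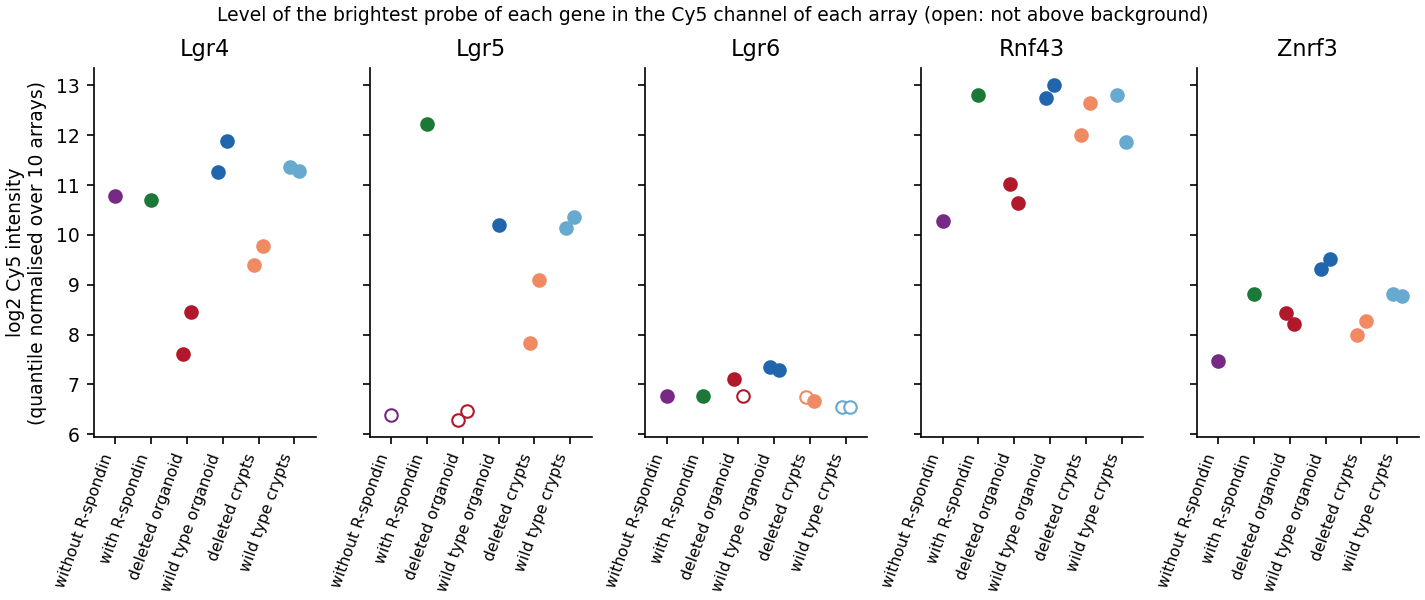
Log2 Cy5 intensity, quantile-normalised over all 10 arrays (vertical axis), of the brightest probe of each gene in the 6 conditions (horizontal axis), 1 symbol per array, open where not above background. Lgr5 runs from 6.28 in a deleted culture to 12.23 with R-spondin, Rnf43 from 10.27 without R-spondin to 13.01 in a wild type culture, and Lgr6 stays between 6.54 and 7.35.

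On the common Cy5 scale each gene had its own order over the 6 conditions, described here without a test because the kinds of array were hybridised apart. Lgr5 was highest in the culture with R-spondin (12.23), followed by wild type crypts (10.14 and 10.36) and wild type culture 1 (10.20), which lay within the spread of the wild type crypts. Deleted crypts came next (7.84 and 9.09). The culture without R-spondin (6.39) lay between the deleted cultures (6.28 and 6.46), all 3 not above background.

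Rnf43 had a different order. Its level was 12.74 and 13.01 in wild type cultures and 12.82 with R-spondin, which lay within that range. Wild type crypts (11.87 and 12.80) and deleted crypts (12.01 and 12.64) overlapped each other. Deleted cultures (10.64 and 11.01) and the culture without R-spondin (10.27) were below all of these.

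Lgr4 by its brightest probe was at 11.26 and 11.88 in wild type cultures and 11.27 and 11.37 in wild type crypts, which overlapped. The cultures without (10.78) and with R-spondin (10.69) came next, then deleted crypts (9.40 and 9.78) and deleted cultures (7.61 and 8.45). Both R-spondin cultures lay above both deleted groups.

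Znrf3 was at 9.32 and 9.52 in wild type cultures, 8.82 with R-spondin and 8.77 and 8.82 in wild type crypts, and these last did not differ beyond their spread. Deleted cultures (8.21 and 8.43) and deleted crypts (7.98 and 8.28) overlapped, and the culture without R-spondin was lowest at 7.47. Lgr6 was at 7.28 and 7.35 in wild type cultures, 6.76 and 7.12 in deleted cultures, 6.77 in each R-spondin culture, 6.67 and 6.74 in deleted crypts and 6.54 and 6.55 in wild type crypts.

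The genes whose Cy5 pattern was most like each member were ranked by Pearson correlation over the arrays, among 5458 probes that were above background on at least 2 arrays and had an SD of at least 0.5. The arrays share their normalisation and the contrasts described above, and the correlations are descriptions. For Lgr5 (9 arrays) they were Naf1, Ephb3, Nav1, Pcdh8 and Dyrk3 (r 0.94 to 0.97). Ephb3 is an ephrin receptor that helps to position cells along the crypt, and it gave -0.79 in crypts, -2.53 in organoids and -3.33 without R-spondin. For Rnf43 (10 arrays) they were Rgcc, Aqp1, Hunk, Adra2a and Cdc42ep1 (r 0.92 to 0.95). Rgcc, a cell cycle regulator, gave -0.44, -4.56 and -6.34 in the same order. For Znrf3 they were Il17rd, Soat1, Tspan12, Sox9 and Mex3a (r 0.91 to 0.95), and the crypt transcription factor gene Sox9 is among them. For Lgr4 they were Jmjd7, Ivd, Tia1, Gm14207 and Ppip5k1 (r 0.86 to 0.95), and for Lgr6 Rbm45, Acot6, Tdrkh, Tecpr1 and Olfr1410 (r 0.89 to 0.94).

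The rest of the pathway is given from fixed lists, with each gene represented by its brightest probe. Of the 4 R-spondin ligand genes none was tested in crypts or organoids, and 1, Rspo4, was above background in the R-spondin pair, at 0.11. Of the 12 Frizzled and Lrp receptor genes, 9 were tested in each deletion. In limma 0 passed. At an unadjusted p under 0.05, 2 were lower in crypts, and 1 was lower and 1 higher in organoids. Their medians were -0.20 in crypts and -0.40 in organoids, where all genes tested had -0.02 and 0.02. By the organoid ratio the median was 0.05 with 4 of 9 below 0, where all genes tested had 0.03, so the direction depended on the measure. Without R-spondin 3 of 11 were lower by at least 1, namely Fzd9 (-2.38), Fzd7 (-1.56) and Fzd2 (-1.23), and 1 was higher, Fzd5 (1.18).

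Wnt feedback and target genes, which report the activity of the pathway, had medians of -0.62 in crypts (12 of 15 below 0), -1.27 in organoids (13 of 14) and -1.98 without R-spondin (15 of 15). Of all genes tested, 52.6%, 47.4% and 42.4% were below 0. By the organoid ratio the median was -0.94 with 11 of 14 below 0, as were 45.7% of all genes tested. In limma 0 passed in crypts or organoids, and at an unadjusted p under 0.05, 7 were lower in crypts and 11 in organoids, with none higher. Axin2, a scaffold of the complex that destroys beta-catenin, gave -0.69 in crypts, -2.92 in organoids and -3.52 without R-spondin. Without R-spondin 13 of the 15 were lower by at least 1. Ascl2, Tnfrsf19, Axin2, Rgmb, Cd44 and Sox9 are also on the stem cell list, so these lists are not independent.

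Related ligases with the same arrangement of a protease-associated domain, a membrane passage and a RING domain are the relatives of Rnf43 and Znrf3. Their medians were -0.29 in crypts (4 tested), -0.05 in organoids (5 tested, 0.06 by ratio) and 0.10 without R-spondin (7 measured). In limma 0 passed, and at an unadjusted p under 0.05, 0 differed in crypts and 1 was lower in organoids. Without R-spondin 0 of the 7 passed a log2 difference of 1. Intracellular Wnt signalling genes, among them Ctnnb1 (0.00 in crypts, -0.08 in organoids and 0.18 without R-spondin), had medians of 0.04, 0.03 and 0.00. By the organoid ratio their median was 0.12. In limma 0 of them passed, and at an unadjusted p under 0.05, 1 was higher in crypts and none differed in organoids.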

How the data were processed

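The authors deposited Agilent scanner files with raw and background values in the unit intensity, processed signals (also intensity) and log10 ratios, and a series matrix with the same log10 ratios, its sign turned for the 2 crypt arrays with deleted RNA in Cy3. Per the file headers the software was Feature Extraction 10.5.1.1, and per the submitters' processing notes 8.5.1.1. Files of the organoid deletion arrays hold median pixel signals, which were used there, and mean signals were used elsewhere.

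Analyses used R 4.3.3 with the packages limma (version 3.58.1) and data.table (version 1.17.8). Signals were background-corrected by normexp (offset 50) after control spots and spots marked as outliers were left out. Crypt and R-spondin ratios were normalised by loess within arrays, and Cy5 signals by quantiles between arrays. Spots of a probe were averaged. Crypt ratios were given the sign of deleted against wild type, and the dye swaps of a replicate were averaged. Tests were limma fits (lmFit, eBayes), two-sided, with Benjamini-Hochberg adjustment over all probes tested. The fits were tested on simulated data. The R-spondin pair had no test, and a log2 difference of 1 was its threshold. A lower bound set a probe not above background at the higher of its own signal and the lowest signal well above background on that array. The fit of the difference joined the crypt ratios and the organoid Cy5 values.

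The brightest probe over the 10 Cy5 channels represents its gene. Up to 3 lowest and 3 highest genes of a list could be named, and the 5 most alike genes of each member. Ctnnb1 and Axin2 in crypts were named after their values were seen. The members, lists and measures were chosen with earlier results of these data known, and Cy5 was made the organoid measure on that knowledge. The number of arrays limits the precision. Alternatives were other background corrections, scalings, filters, blocks and left-out samples. The Apc deletion data that the series description names were not used here.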

Additional observations from a re-analysis of the deposited data

How the results depend on the processing

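The value of each member kept its direction under every alternative tried except where a reversal is named here and for the R-spondin differences of 2 Lgr4 probes near 0, which ran from -0.014 to 0.14 (A_52_P276727) and from -0.40 to 0.26 (junction probe). Calls depended on the processing. P-values here are limma adjusted p. Of all probes in crypts, 6 were called lower and 27 higher. The scanner's processed signals gave 619 and 588, with Lgr5 at -1.97 (1.2e-06) and Lgr4 A_52_P276727 at -1.57 (0.000148). Without background correction there were 21 and 61, with Lgr5 at -1.48 (0.0464) and that Lgr4 probe at -1.46 (0.0464). Median centring gave 97 and 363, with -1.55 (0.0053) and -1.35 (0.023). The series matrix gave 174 and 294, with -2.01 (0.00759) and -1.62 (0.0125), and Rnf43 turned to -0.035. The 4 arrays with replicate as a random block gave 242 and 343, with -1.68 (0.00401) and -1.56 (0.00236). Keeping marked spots gave 10 and 27, with smaller differences of -1.15 (0.161) for Lgr5 and -1.24 (0.138) for Lgr4 A_52_P276727, and turned Rnf43 to -0.021. A trend on mean signal gave 6 and 31, with 0.0682 for Lgr5 and 0.0729 for that Lgr4 probe. Without the filter on dim probes 0 were called in either direction, and each of these 2 probes had 0.529. Without crypt replicate 1 there were 897 lower and 321 higher, and without replicate 2 there were 0 and 3. Leaving out a replicate gave -1.89 to -1.48 for Lgr5, -1.61 to -1.51 for Lgr4 A_52_P276727 and -0.43 to 0.46 for Rnf43. The crypt replicate then left was assumed to vary like the organoid cultures, from which its spread was taken. No p of a member is therefore given here for these fits. Lgr4 A_51_P442746 gave -1.15 without replicate 1 and -0.96 without replicate 2. That probe passed with the processed signals (0.00598), the series matrix (0.041) and the random block (0.0143), and not with the other alternatives in processing.

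In organoids, 2 probes were called lower and 5 higher. The ratio gave 0 and 0 and turned Lgr6 to 0.043. The processed Cy5 signals gave 53 and 53, with Lgr5 at -4.30 (0.00567), Rnf43 at -1.78 (0.0197) and Lgr4 A_52_P276727 at -2.74 (0.0094). Equal 75th percentiles gave 20 and 12, with -3.81 (0.0151), -2.02 (0.0423) and -3.53 (0.0151). The slide as a block gave 290 and 242, with -3.80 (slide 1 alone, no p), -2.10 (0.00197) and -3.57 (6.74e-05), and Znrf3 at -1.12 (0.0212). A trend on mean signal gave 24 and 21, with -3.73 (0.00667), -2.10 (0.0485) and -3.57 (0.0296). The series matrix gave 6 and 18 and turned the Lgr4 junction probe to -0.061 and Lgr6 to 0.70, with smaller differences of -1.32 (0.773) for Lgr5, -1.01 (0.89) for Rnf43, -1.18 (0.552) and -1.30 (0.36) for Lgr4 A_52_P276727 and A_51_P442746, and -0.34 for Znrf3. No background correction, marked spots kept and no filter gave 0 lower and 2 higher each. In that order Rnf43 had 0.196, 0.175 and 0.258, and Lgr4 A_52_P276727 had 0.189, 0.175 and 0.303. The Lgr4 probe A_51_P442746, called in the organoids, was not called with the ratio, without background correction, with the series matrix, with marked spots kept or without the filter. Leaving out 1 culture gave 1 to 30 lower and 3 to 51 higher, with Lgr5 at -3.80 to -3.66, Rnf43 at -2.28 to -1.91, Lgr4 A_52_P276727 at -3.99 to -3.16 and the junction probe at -0.46 to 0.75. Leaving out wild type culture 2 removed no Lgr5 value, so it does not check that probe. Fits without 1 culture leave 1 culture in a group, so no p of a member is given for them here.

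The difference between crypts and organoids called 5 probes lower and 7 higher, with 0 and 0 by the organoid ratio, where Znrf3 turned to -0.67 and Lgr4 A_52_P276727 to -0.98, and 3 and 4 with marked spots kept. Leaving out 1 sample gave 0 to 11 lower and 0 to 8 higher. Without R-spondin the series matrix put 2198 probes lower and 1781 higher past a log2 difference of 1 (1399 and 1026 as reported), with Lgr5 at -4.65, Znrf3 at -1.76 and Lgr6 at 0.20. The processed signals put 2061 higher, with -4.60, -1.71 and 0.26, and without background correction Lgr5 was -4.86 and Znrf3 -1.22. Cy5 alone gave -6.36 for Lgr5 and -2.58 for Rnf43. With equal 75th percentiles the distance from the lowest to the highest condition was 6.26 for Lgr5 and 2.10 for Znrf3 (5.86 and 1.95 as reported). The cause of these movements was not tested. Whether differences of probes near background were compressed was not tested. An organoid group with 1 culture left was assumed to vary like the other. The dim Rnf43 probe ran from -2.54 (series matrix) and -2.48 (processed signals) to -0.73 (no background correction), across the threshold of 1. No paired analysis was possible because the labels give the organoid cultures no replicate numbers that groups share. The slide block stands in for it, and crypt RNAs were paired on their arrays by design.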
